A study of Mus musculus with 30 samples.

Results

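The receptor genes Pdgfra and Pdgfrb and the ligand genes Pdgfa, Pdgfb, Pdgfc and Pdgfd were followed through 10 stromal populations sorted from the mouse small intestine and colon. These 6 genes, of 32316 genes with a symbol, were taken by name as the receptors and ligands of the PDGF family. Each population was represented by 3 bulk RNA-seq libraries, made from cells of untreated C57BL6/Nrj mice aged 8 to 10 weeks. The summed estimated count per library ran from 2245052 to 19096945, with a median of 9601683.

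All cells came from the lamina propria, and dead, lineage-positive, CD31+, BP3+, EpCAM+ and NCAM hi cells had been gated out. Pericytes of both organs were sorted as PDGFRα-ESAM-1+PDPN- cells. The gate for smooth muscle cells (SMC), taken from the small intestine only, was PDGFRα-ESAM-1+PDPN+. The small intestinal fibroblasts (FB) were ESAM-1- and were divided into PDGFRα hiCD34- cells (PDGFRα hi FB), PDGFRα intCD34- cells (Fgfr2+ FB) and PDGFRα intCD34+ cells, which hold the Igfbp5+ and CD81+ FB together and are called CD34+ FB here. The colonic FB were ESAM-1- as well. They comprised CD34-PDPN+ cells (PDGFRα hi FB) and CD34+ cells divided into PDPN intCD90- (CD81+ FB), PDPN hiCD90+ (CD90+ FB) and PDPN hiCD90- (Fgfr2+ FB).

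PDGF ligands are secreted dimers that bring receptor tyrosine kinases together on the surface of mesenchymal cells, where the receptors signal for proliferation, migration and survival. The alpha receptor is known from fibroblasts and from the subepithelial mesenchyme of the developing villus, and the beta receptor from pericytes and smooth muscle, which are recruited to vessels by the B chain from endothelium. The A and B chains are processed inside the cell, while the C and D chains are released in a latent form and activated by proteases outside it.

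Of the 30 libraries, 4 were treated as standing apart. Small intestinal pericyte replicate 1 had Pearson correlations of log2 CPM (counts scaled to a common library size) of 0.722 and 0.753 with the other libraries of its population, which reached 0.804 with each other. SMC replicate 3 had correlations of 0.830 and 0.832, against 0.914 between replicates 1 and 2. Colonic CD81+ FB replicate 1 had 0.824 and 0.848, against 0.877 between the other 2. Small intestinal Fgfr2+ FB replicate 3 was the smallest library. Similar gaps were seen in 3 libraries that were not among these 4. Small intestinal PDGFRα hi FB replicate 3 had 0.899 and 0.904, against 0.952 between replicates 1 and 2. Colonic Fgfr2+ FB replicate 1 had 0.873 and 0.863, against 0.914, and colonic PDGFRα hi FB replicate 2 had 0.898 and 0.904, against 0.940. Where a call of a PDGF gene rested on one of them, the value without it is given. Calls of other genes were less stable, and of 93 calls in the 4 gene lists used below, 46 were lost in at least 1 fit without a library, 27 of these without 1 of the 4.

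The labels were compared with marker genes. All 7 pericyte markers were detected in the pericytes, where they summed to between 31390 and 51990 CPM with Rgs5 the most abundant. The sums were 149.6 to 754.9 CPM in colonic FB and 1883 to 4208 CPM in small intestinal FB. In SMC, Rgs5 alone was at 4164, 3922 and 7591 CPM. The 6 smooth muscle markers summed to 21580, 17860 and 21950 CPM in SMC, led by Myh11, to 10060, 11180 and 11630 CPM in colonic pericytes and to 4373, 2991 and 3234 CPM in small intestinal pericytes. The 5 fibroblast markers summed to 10560 CPM or more in every FB library, to between 7601 and 12990 CPM in SMC, and to between 2207 and 4507 CPM in pericytes.

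Markers of cells outside the gates were low. The 6 endothelial markers, mostly Pecam1, summed to 49.0, 60.8 and 82.6 CPM in colonic pericytes and to 98.9, 148 and 92.1 CPM in small intestinal pericytes, against 32.7 to 68.2 CPM in FB and 42.8, 45.8 and 191 CPM in SMC. The 4 platelet and megakaryocyte markers, mostly Itga2b and with Ppbp at 0 in every library, summed to at most 14.2 CPM in pericytes. The 6 immune markers summed to 412, 77.95 and 80.9 CPM in small intestinal pericytes and to 92.2, 166 and 31.2 CPM in colonic pericytes, and to between 7.82 and 66.9 CPM elsewhere. Cd68 was the most abundant of them in 5 of the 6 pericyte libraries, and the highest sum belonged to the small intestinal pericyte library that stood apart. The 5 epithelial markers summed to at most 30.8 CPM, with Krt8 at 0 in 29 libraries and Epcam at 0 in 28. The 4 mesothelial markers, mostly Wt1, summed to between 0.322 and 16.5 CPM. The cells that these lists mark had been gated out or lie outside the lamina propria. Of the 3 markers of interstitial cells of Cajal, Ano1 was abundant in pericytes, where the list summed to between 563 and 1106 CPM, and Etv1 in PDGFRα hi FB of the small intestine, where it summed to between 410 and 498 CPM, while Kit reached at most 42.9 CPM in any library. The 4 posterior Hox genes summed to between 23.3 and 140.6 CPM in colonic libraries and to between 0 and 4.48 CPM in small intestinal ones, so that organ and label matched in all 30 libraries.

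Pdgfra encodes PDGF receptor alpha, which binds the A, B and C chains. Its protein was itself a gate for the small intestinal populations and for the pericytes, so differences that follow the gate check the labels and are not findings. The libraries of small intestinal PDGFRα hi FB held 6093, 6587 and 6408 CPM, and those of colonic PDGFRα hi FB held 2388, 2467 and 2548 CPM. Both stood clear of every other library, and of each other. Colonic CD81+ FB had 995, 1076 and 716 CPM and small intestinal CD34+ FB 884, 820 and 754 CPM. Colonic Fgfr2+ FB had 652, 729 and 801 CPM, colonic CD90+ FB 544, 799 and 620 CPM, and small intestinal Fgfr2+ FB 662, 664 and 592 CPM. These 5 populations, listed by descending mean, overlapped from each to the next, and all lay far above the PDGFRα- gates. SMC had 16.5, 24.2 and 42.9 CPM, colonic pericytes 9.99, 13.0 and 9.14 CPM, and small intestinal pericytes 10.7, 9.85 and 10.7 CPM, so SMC did not overlap either pericyte population while the pericytes overlapped each other. In bulk libraries fewer cells with a transcript and less of it per cell cannot be told apart, which holds for every level given here.

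Pdgfra was lower in small intestinal pericytes than in the 3 small intestinal FB populations (log2 fold change −7.12, SE 0.325, edgeR adjusted p = 6.6e-15), in SMC than in the same FB libraries (−5.80, SE 0.302, edgeR adjusted p = 1.6e-13) and in colonic pericytes than in the 4 colonic FB populations (−6.55, SE 0.313, edgeR adjusted p = 3.4e-15). It was higher in small intestinal PDGFRα hi FB than in the other FB of that organ (3.18, SE 0.215, edgeR adjusted p = 5.4e-11). All of these follow the gate. The colonic FB gates did not name PDGFRα, and colonic PDGFRα hi FB were still higher than the other colonic FB (1.69, SE 0.193, edgeR adjusted p = 7.8e-07). Between the organs, PDGFRα hi FB of the small intestine were higher without overlap, by 1.42 on the log2 scale (SE 0.260, edgeR adjusted p = 0.00197), which is under the 1.5 required for a call here. Fgfr2+ FB of the organs overlapped (−0.21, SE 0.255, edgeR adjusted p = 0.804). Small intestinal pericytes were below SMC without overlap, again by less than the required size (−1.32, SE 0.266, edgeR adjusted p = 0.00108), and without SMC replicate 1 the difference passed (−1.58, edgeR adjusted p = 1.3e-04). The called Pdgfra differences from FB and among FB of one organ were called in every alternative fit.

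Pdgfrb encodes PDGF receptor beta, which binds the B and D chains. Small intestinal pericytes had 5222, 3510 and 2021 CPM and colonic pericytes 2125, 2443 and 1246 CPM. The pericytes of the organs overlapped, and all 6 libraries lay above every other library. The next populations were small intestinal Fgfr2+ FB with 280.0, 359 and 188 CPM, small intestinal PDGFRα hi FB with 244, 303 and 168 CPM, and colonic CD81+ FB with 247, 186 and 140 CPM. Then came colonic CD90+ FB with 198, 199 and 160.0 CPM, colonic Fgfr2+ FB with 137, 175 and 241 CPM, small intestinal CD34+ FB with 188, 189 and 166 CPM, and colonic PDGFRα hi FB with 179, 178 and 177 CPM. The 7 FB populations overlapped from each to the next. SMC were lowest, with 104, 87.5 and 96.0 CPM, and overlapped none of the others.

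Pericytes were higher in Pdgfrb than FB in the small intestine (log2 fold change 4.02, SE 0.247, edgeR adjusted p = 1.1e-12) and in the colon (3.43, SE 0.226, edgeR adjusted p = 2.9e-12), and small intestinal pericytes were higher than SMC (5.32, SE 0.399, edgeR adjusted p = 1.9e-10). These calls held in every alternative fit. SMC were below small intestinal FB without overlap (−1.30, SE 0.294, edgeR adjusted p = 0.00455), under the size required for a call. Small intestinal pericytes had a higher mean than colonic ones (0.91, SE 0.334, edgeR adjusted p = 0.0956), and this difference did not pass the test. Differences of Pdgfrb between FB populations ran from −0.57 for small intestinal CD34+ against Fgfr2+ FB to 0.56 for Fgfr2+ FB of the small intestine against those of the colon, with an edgeR adjusted p of 0.516 or more in each comparison. The 7 pericyte markers also had a higher sum in small intestinal FB (1883 to 4208 CPM) than in colonic FB (149.6 to 754.9 CPM). The part of these markers in the FB levels of Pdgfrb was not tested.

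**Figure D1:**
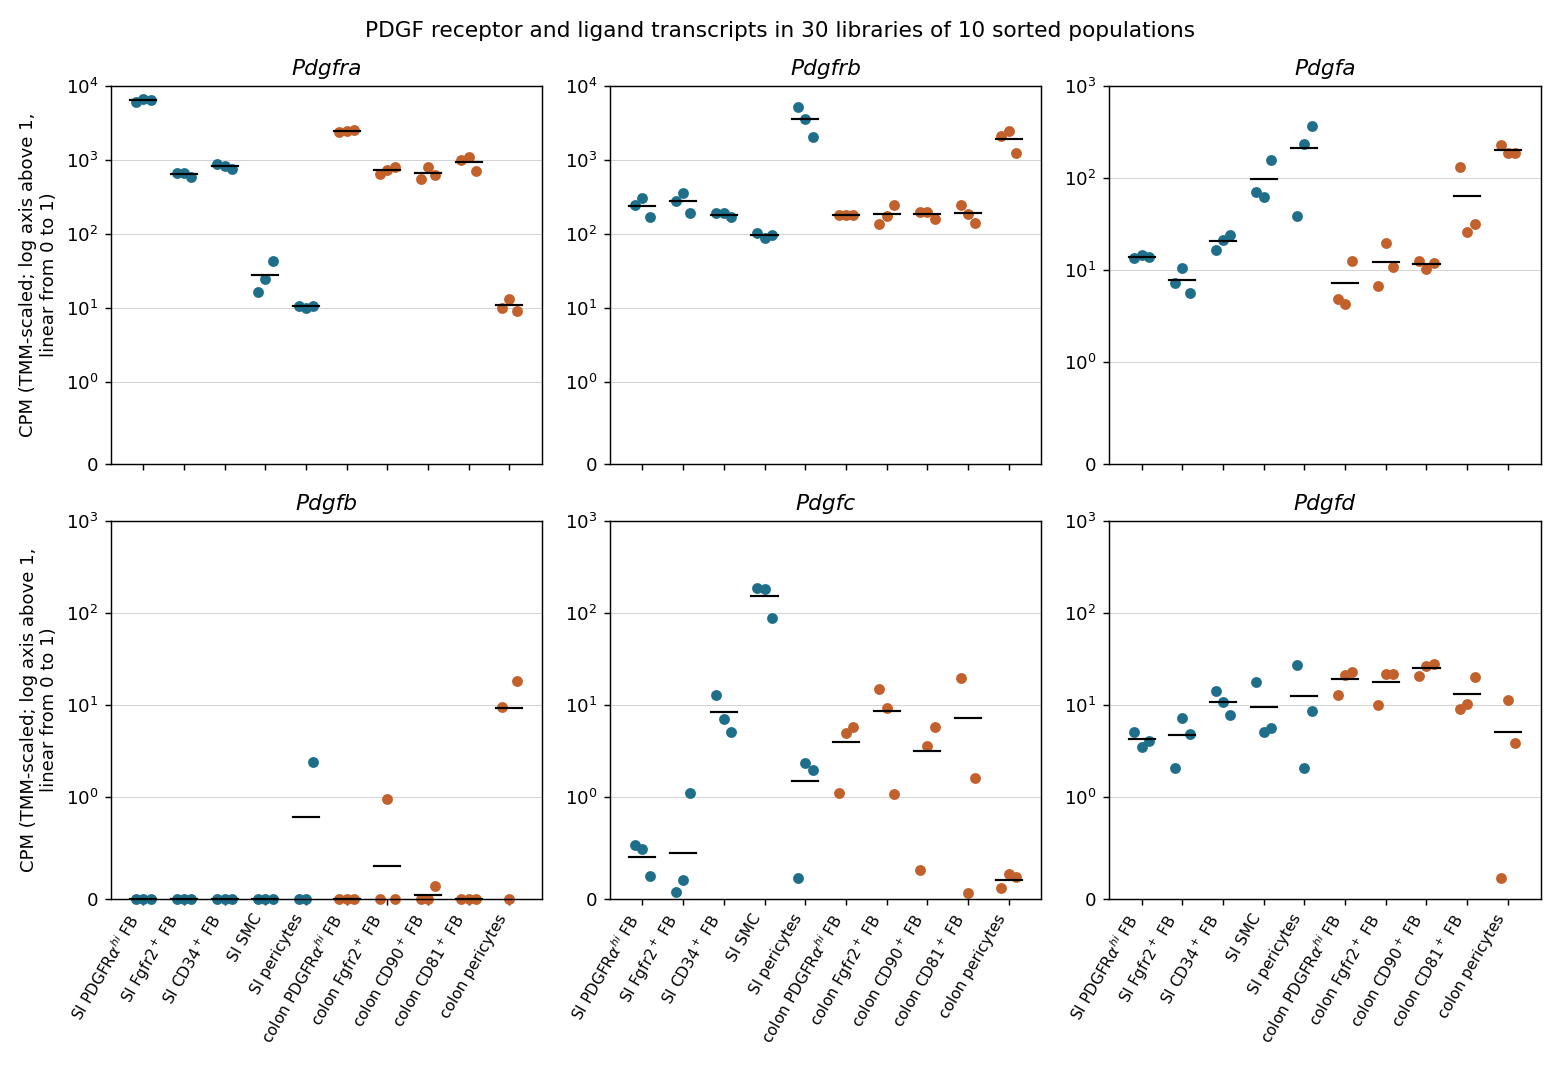
Level of each PDGF receptor and ligand gene in CPM (vertical axis, logarithmic above 1 and linear from 0 to 1) in the 3 libraries of each of 10 populations, small intestine in blue and colon in orange, with a black bar at each mean. Pdgfrb is highest in pericytes, between 1246 and 5222 CPM, Pdgfc in SMC, between 87.4 and 189 CPM, and Pdgfb is at 0 in all libraries of 6 populations.

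The balance of the receptors within a library was measured as the log2 ratio of Pdgfra to Pdgfrb, each as CPM per kilobase of effective transcript length (CPM per kb). On this scale the FB populations were all on the side of the alpha receptor. Small intestinal PDGFRα hi FB stood at 5.15 ± 0.290 (SD, n = 3), colonic PDGFRα hi FB at 4.18 ± 0.232, and small intestinal CD34+ FB at 2.55 ± 0.139. Colonic CD81+ FB stood at 2.35 ± 0.591, colonic Fgfr2+ FB at 2.25 ± 0.158, colonic CD90+ FB at 1.85 ± 0.147 and small intestinal Fgfr2+ FB at 1.41 ± 0.417. SMC were on the side of the beta receptor at −2.08 ± 0.582. Pericytes lay further out, at −7.68 ± 0.534 in the colon and −7.86 ± 0.412 in the small intestine, and differed by less than their spread. In CPM per kb, mean Pdgfra ran from 1588 ± 272 in small intestinal PDGFRα hi FB to 1.75 in colonic pericytes, and mean Pdgfrb from 687 ± 308 in small intestinal pericytes to 18.3 in SMC. The range of Pdgfrb among the populations was therefore narrower than that of Pdgfra, whose protein was gated on.

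Pdgfa encodes the A chain, a ligand of the alpha receptor. Small intestinal pericytes had 38.1, 235 and 364 CPM, and colonic pericytes 225, 186 and 184 CPM. The first of these libraries is the small intestinal pericyte library that stood apart, and it is the low one. SMC had 70.6, 61.4 and 156 CPM and colonic CD81+ FB 131, 25.8 and 31.3 CPM. In each of these populations 1 library was high, and in both it was the one that stood apart from its population. Small intestinal CD34+ FB had 16.5, 20.8 and 23.7 CPM and small intestinal PDGFRα hi FB 13.6, 14.3 and 13.8 CPM. Colonic Fgfr2+ FB had 6.64, 19.5 and 10.6 CPM and colonic CD90+ FB 12.3, 10.1 and 11.8 CPM. Small intestinal Fgfr2+ FB had 7.11, 10.4 and 5.51 CPM and colonic PDGFRα hi FB 4.78, 4.201 and 12.5 CPM. In this order of means, the steps from colonic pericytes to SMC, from CD81+ to CD34+ FB and from CD34+ FB to small intestinal PDGFRα hi FB were without overlap, and the other neighbours overlapped.

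Pdgfa was higher in pericytes than in FB in the small intestine (log2 fold change 4.06, SE 0.459, edgeR adjusted p = 1.2e-07) and in the colon (3.68, SE 0.418, edgeR adjusted p = 1.1e-07), and in SMC than in small intestinal FB (2.83, SE 0.457, edgeR adjusted p = 8.8e-05). These calls held in every alternative fit, and without the low pericyte library the first was 4.53. Small intestinal pericytes and SMC overlapped (1.23, SE 0.622, edgeR adjusted p = 0.208), and so did pericytes of the organs (0.11, edgeR adjusted p = 0.968). Among FB, colonic CD81+ FB were higher than colonic CD90+ and Fgfr2+ FB without overlap (2.38, SE 0.513, edgeR adjusted p = 0.00931). That call rested on CD81+ FB replicate 1, and without it the difference was 1.27 with an edgeR adjusted p of 0.354. Small intestinal CD34+ FB lay above Fgfr2+ FB without overlap, but the difference did not pass (1.43, SE 0.635, edgeR adjusted p = 0.414), nor did the lower level of colonic PDGFRα hi FB against the other colonic FB (−1.53, SE 0.560, edgeR adjusted p = 0.163). Of all 31-base words of the Pdgfa transcripts, 23.3% also occur in other genes, and its antisense partner 6330403L08Rik overlaps it, so part of its estimated count is uncertain in libraries without strand.

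Pdgfb encodes the B chain, which binds both receptors. Colonic pericytes held 92, 0 and 252 counts, or 9.58, 0 and 18.4 CPM. Small intestinal pericytes held 0, 0 and 20 counts, the last being 2.42 CPM. Colonic Fgfr2+ FB held 0, 10 and 0 counts and colonic CD90+ FB 0, 0 and 2 counts. All libraries of the other 6 populations were at 0, which allows at most 3 counts per library, or 0.163 to 1.103 CPM depending on depth. Only 4 of the 30 libraries thus had more than 3 counts, 3 of them from pericytes, and every population with counts overlapped the populations at 0.

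The difference between colonic pericytes and colonic FB passed for Pdgfb (edgeR adjusted p = 0.00215) but not by DESeq2 (adjusted p = 0.293). That between small intestinal pericytes and FB passed in edgeR (adjusted p = 0.0266) on replicate 3 alone, as a level at least 2.17-fold that of FB at 3 counts per library. Without that replicate the adjusted p was 1.00, by DESeq2 it was 0.490, and in edgeR with the replicate number as a block it was 0.116. Fitted fold changes of Pdgfb, near 0 in most libraries, depend on the prior count and are not given. Those printed for other genes with few counts on one side carry the same limit. Endothelial markers, whose cells are a known source of the B chain, differed between the pericyte libraries. Colonic pericyte replicate 3 had 101 counts of Kdr and 8 of Cdh5, against 10 and 0 in replicate 1 and 7 and 0 in replicate 2, and small intestinal pericyte replicate 3 had 34 of Kdr and 117 of Cdh5, against 6 and 1 in replicate 1 and 7 and 0 in replicate 2. Over all 6 endothelial markers those libraries summed to 49.0, 60.8 and 82.6 CPM in the colon and 98.9, 148 and 92.1 CPM in the small intestine. In neither organ were these sums in the order of the Pdgfb counts. The part of endothelial RNA in the Pdgfb counts was not tested.

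Pdgfc encodes the C chain, a latent ligand of the alpha receptor. SMC had 189, 183 and 87.4 CPM, from 1778, 1851 and 755 counts. No other library came near these values. Colonic Fgfr2+ FB had 15.1, 9.30 and 1.08 CPM and small intestinal CD34+ FB 12.8, 7.04 and 5.02 CPM. Colonic CD81+ FB had 19.9, 0.0615 and 1.61 CPM, the first again in the library that stood apart. Colonic PDGFRα hi FB had 1.102, 4.99 and 5.71 CPM, colonic CD90+ FB 0.282, 3.56 and 5.69 CPM, and small intestinal pericytes 0.205, 2.31 and 1.94 CPM. The 3 lowest populations were at a handful of counts, with 1, 2 and 3 in small intestinal Fgfr2+ FB, 4, 9 and 2 in small intestinal PDGFRα hi FB, and 1, 2 and 3 in colonic pericytes. Below SMC, each population overlapped the next.

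SMC were higher in Pdgfc than small intestinal FB (log2 fold change 7.16, SE 0.925, edgeR adjusted p = 3.1e-06) and small intestinal pericytes were lower than SMC without overlap (−6.57, SE 1.43, edgeR adjusted p = 0.00244). Both calls held in every alternative fit, and SMC against FB stayed between 6.92 and 7.57 with any 1 library left out. Colonic FB held 756 Pdgfc counts in all and colonic pericytes 6, a ratio of 27.2 after scaling, with a 95% counting interval of 12.4 to 74.2 (edgeR adjusted p = 0.0113). The groups overlapped, and without colonic pericyte replicate 1 the adjusted p was 0.0541. Within FB, small intestinal CD34+ FB held 264 counts against 6 in Fgfr2+ FB, without overlap (ratio 39.3, interval 17.8 to 108, edgeR adjusted p = 0.124, DESeq2 adjusted p = 0.00844). Colonic Fgfr2+ FB held 246 counts against 6 in their small intestinal namesakes (ratio 40.0, interval 18.1 to 110, edgeR adjusted p = 0.106, DESeq2 adjusted p = 0.00711), with overlap. Neither passed in the edgeR fit of all libraries, but the second passed without the filter on low counts (adjusted p = 0.0437), and both were called without the 4 libraries that stood apart, chosen after seeing the data. Small intestinal pericytes held 36 counts against 6 in colonic ones (ratio 8.83, interval 3.68 to 25.6, edgeR adjusted p = 0.178). These intervals, and the limits set by 3 counts, cover counting error only.

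Pdgfd encodes the D chain, a latent ligand of the beta receptor. Colonic CD90+ FB had 20.6, 26.9 and 28.2 CPM, colonic PDGFRα hi FB 12.9, 21.1 and 23.0 CPM, and colonic Fgfr2+ FB 10.1, 21.5 and 21.5 CPM. Colonic CD81+ FB had 9.02, 10.3 and 20.4 CPM, so that the colonic FB took the first 4 places by mean. Small intestinal pericytes had 27.3, 2.07 and 8.60 CPM and small intestinal CD34+ FB 14.2, 10.9 and 7.70 CPM. SMC had 18, 5.14 and 5.56 CPM and colonic pericytes 0.208, 11.3 and 3.88 CPM. In the mural populations, meaning pericytes and SMC, single libraries differed more than the means did. Small intestinal Fgfr2+ FB had 2.07, 7.26 and 4.78 CPM and small intestinal PDGFRα hi FB 5.13, 3.53 and 4.08 CPM. Every population overlapped the next in the order of means.

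No difference in Pdgfd passed the edgeR test in any of the 12 comparisons, while 3 had an unadjusted p under 0.05 and 1 was called by DESeq2. Colonic pericytes against colonic FB came to −1.81 (SE 0.799, edgeR adjusted p = 0.118). It passed by DESeq2 (−1.76, adjusted p = 0.0356) and, in edgeR, without colonic pericyte replicate 2 (−3.15, adjusted p = 0.0325). Small intestinal FB lay below their colonic namesakes without overlap for PDGFRα hi FB (−2.11, SE 0.924, edgeR adjusted p = 0.636) and for Fgfr2+ FB (−1.95, SE 0.922, edgeR adjusted p = 0.378). Small intestinal CD34+ FB lay above Fgfr2+ FB without overlap (1.26, SE 0.906, edgeR adjusted p = 0.673). For small intestinal pericytes against FB the value was 1.12 (SE 0.689, edgeR adjusted p = 0.267), and −0.18 without pericyte replicate 1.

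The ligand genes were compared with each other as shares of their summed CPM per kb. Pdgfa made up 96.2% of the sum in colonic pericytes and 89.3% in small intestinal pericytes. SMC divided it between Pdgfa at 51.6% ± 22.5 (SD, n = 3) and Pdgfc at 44.8% ± 20.8, and without replicate 3, the library that stood apart, Pdgfa held 38.6% and Pdgfc 56.5%. Without division by length all 3 libraries averaged 37.6% Pdgfa and 58.9% Pdgfc. SMC had the highest mean share of Pdgfc of the 10 populations, with or without that library. Pdgfd was the largest share in every library of colonic PDGFRα hi FB, at 65.5% ± 6.93, and of colonic CD90+ FB, at 58.7% ± 5.27. Colonic Fgfr2+ FB had 43.0% ± 18.7 of Pdgfd and 39.9% ± 7.33 of Pdgfa, an order that rested on replicate 3, and without it Pdgfd held 32.8% and Pdgfa 42.5%. Small intestinal FB were mostly Pdgfa, with 82.9% ± 3.06 in PDGFRα hi FB, 75.5% in Fgfr2+ FB and 65.2% in CD34+ FB. Colonic CD81+ FB resembled them with 78.7% Pdgfa.

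Summed over the 4 ligand genes, the level was highest in mural populations, with 181 ± 122 CPM per kb in small intestinal pericytes (119 without replicate 3), 149 ± 8.94 in colonic pericytes and 133 ± 24.8 in SMC. The FB sums were lower, from 53.8 ± 44.3 in colonic CD81+ FB (28.5 without replicate 1) and 24.8 ± 0.322 in small intestinal CD34+ FB to 13.3 in PDGFRα hi FB of the small intestine and 9.15 in the Fgfr2+ FB there. Small intestinal PDGFRα hi FB, with the highest Pdgfra, thus had a Pdgfa level of 11.01 CPM per kb, while small intestinal pericytes had 42.8, 176 and 297 in their libraries.

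**Figure D2:**
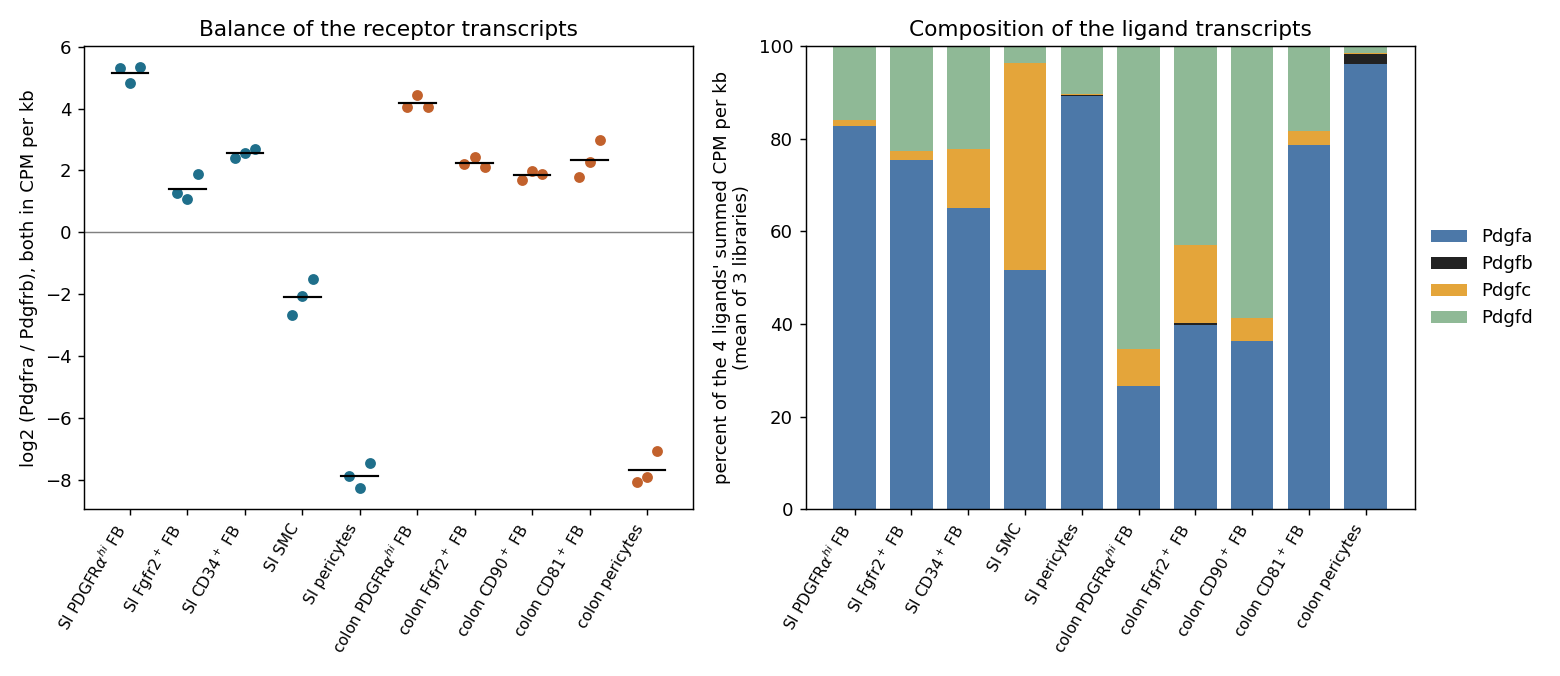
Left, log2 ratio of Pdgfra to Pdgfrb in CPM per kb for each library, with a bar at the mean of 3 libraries, and right, percent of the summed CPM per kb of the 4 ligand genes held by each, as the mean of 3 libraries per population. The ratio falls from 5.15 in small intestinal PDGFRα hi FB to −7.86 in small intestinal pericytes, and Pdgfd holds 65.5% of the ligand sum in colonic PDGFRα hi FB.

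Across the 10 population means of log2 CPM, Pdgfra and Pdgfa ran in opposite directions (Pearson r = −0.869), as did Pdgfra and Pdgfrb (r = −0.652) and Pdgfra and Pdgfb (r = −0.656). Pdgfrb ran with Pdgfb (r = 0.738) and Pdgfa (r = 0.633) and against Pdgfc (r = −0.567) and Pdgfd (r = −0.478). Pdgfa and Pdgfb had r = 0.635, and Pdgfd had r = −0.521 with Pdgfb, −0.447 with Pdgfa and 0.441 with Pdgfc. The other pairs lay between −0.405 and 0.361. These describe 10 points of which 3 are mural populations, and the means share libraries and normalization.

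In the small intestine, pericytes were higher than FB in Pdgfrb and Pdgfa and, by gate, lower in Pdgfra. With Pdgfb, called on 1 library, 4 of the 6 genes passed while 16.6% of all genes tested did. Without pericyte replicate 3, by DESeq2, or with the replicate number as a block, 3 of the 6 passed. Pdgfc and Pdgfd did not pass. For Pdgfc the fit gave 0.59 (edgeR adjusted p = 0.735) although its mean was lower in pericytes, at 1.485 CPM against 3.055 CPM, since the fit averages log levels of the FB populations. Among the 17 genes of ligand processing and receptor partners, 3 were higher and 3 lower in pericytes, with a median log2 fold change of 0.08 beside −0.02 over all genes tested. Pcsk6, a proprotein convertase, fell by 3.53 and Plat, the plasminogen activator that activates the C chain, by 2.36, while Cspg4, a pericyte proteoglycan that binds the A chain, rose by 1.76 (0.96 without pericyte replicate 1) and the receptor phosphatase gene Ptprj by 1.57. St14, the gene of matriptase, a protease of the D chain, averaged 5.46 CPM in pericytes and at most 0.277 CPM in an FB population, and DESeq2 did not call it.

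Of the receptor signalling genes, edgeR called 0 of 33 higher and 1 lower (median −0.26), the adaptor gene Nck1 at −2.42, while 10 had an unadjusted p under 0.05 and DESeq2 called 4. Of the feedback and response genes 6 of 11 were higher and 0 lower, with a median of 2.21. Dusp4 and Dusp6, phosphatases of MAP kinases, averaged 33.8 CPM against at most 1.18 CPM in an FB population for Dusp4 and rose by 2.51 for Dusp6, which without pericyte replicate 1 was at 1.08 and not called. The growth-response transcription factor genes Myc (4.097), Fos (3.80) and Egr1 (2.40) rose too. Of the 11 PDGF and VEGF relatives, 1 was higher and 2 lower (median 0.47), namely Vegfb (2.21), Vegfa (−3.81) and Vegfd (−2.51), all growth factors of vessels. The Vegfb call was lost in 7 of 12 fits without a library, with 1.62 without pericyte replicate 1. The Vegfd call was lost in 2 of 12, and that of Vegfa in none.

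SMC were compared with the same small intestinal FB libraries, so the comparison shares its reference with the pericytes. Pdgfc and Pdgfa were higher and Pdgfra, by gate, lower, making 3 of the 6 genes where 5.16% of all genes passed. That background was 906 genes, and 530 without SMC replicate 3. Pdgfrb fell short of the required size, Pdgfd stood at 0.64 (SE 0.701, edgeR adjusted p = 0.733), and Pdgfb was at 0 on both sides. Of the ligand processing and partner genes 0 were higher and 3 lower (median −0.32 beside −0.04 over all genes). Plat fell by 3.33, Lrp1, an endocytic partner of the beta receptor, by 2.12, and Pcsk6 by 1.90.

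No receptor signalling gene was called in SMC against FB by edgeR (4 of 33 under an unadjusted p of 0.05, 0 by DESeq2, median −0.29). Of the feedback and response genes 1 was higher and 4 lower (median −1.35). Dusp6 fell by 4.74, the signalling inhibitor genes Spry4 by 3.57 and Spry2 by 3.52, and Egr1 by 1.64, while Myc rose by 1.74, and by 0.16 without SMC replicate 3. Of the relatives 0 were higher and 2 lower (median −0.09). These were Vegfa at −2.44 and Pgf, the gene of placental growth factor, which had at most 1 count in any SMC library (mean 0.0355 CPM) against means of 5.16 to 32.6 CPM in the FB populations.

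In the colon, pericytes and FB differed in 5 of the 6 genes, where 16.0% of all genes passed. Pdgfrb, Pdgfa and Pdgfb were higher and Pdgfra and Pdgfc lower, with the Pdgfb and Pdgfc calls resting on few counts. By DESeq2 5 genes passed as well, with Pdgfd in place of Pdgfb. Of the ligand processing and partner genes 2 were higher and 3 lower (median 0.03 beside 0.01 over all genes). Pcsk6 fell by 7.50, the related convertase gene Pcsk5 by 3.96 and Lrp1 by 1.73, while Cspg4 rose by 4.29 and Pcsk7 by 1.59.

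Of the receptor signalling genes 1 was higher and 2 lower in colonic pericytes (median −0.13), namely Gab1 (1.57), the gene of a docking protein, and Nras (−1.84) and Fyn (−1.69), the genes of a small GTPase and a kinase. Feedback and response genes counted 4 higher and 0 lower (median 1.03). Spry4 rose by 2.97, Myc by 1.95 and Fos by 1.79, and Dusp4 averaged 73.0 CPM against at most 1.40 CPM in a colonic FB population. The relatives counted 2 higher and 2 lower (median −1.35, the fitted value of Kit, with at most 1 count per colonic pericyte library). Pgf rose by 4.41 and Vegfa fell by 2.74, and Vegfc averaged 0.415 CPM against 11.4 to 50.04 CPM in colonic FB populations. The call of the macrophage receptor gene Csf1r (3.23) rested on replicate 2, with 2.29, 48.4 and 0.585 CPM in the libraries. Without it the value was −0.38, and 10 of 15 fits without a library lost the call. Csf1r is also 1 of the 6 immune markers, which summed to 92.2, 166 and 31.2 CPM in these pericyte libraries, and their part was not tested.

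Small intestinal pericytes and SMC differed in Pdgfrb and Pdgfc, 2 of the 6 genes, beside 10.1% of all genes. Pdgfrb was higher in pericytes and Pdgfc in SMC. Pdgfb in pericytes was at least 2.52-fold the level of 3 counts per SMC library (edgeR adjusted p = 0.192), and Pdgfd stood at 0.48 (SE 0.889, edgeR adjusted p = 0.791). Of the ligand processing and partner genes 3 were higher and 2 lower in pericytes (median 0.89 beside 0.00 over all genes). Ptprj (2.98), the co-receptor gene Nrp1 (2.46) and Cspg4 (2.08) rose, and the phosphatase gene Ptpn2 (−3.24) and Pcsk5 (−1.81) fell.

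The signalling genes had a median of 0.28 between pericytes and SMC, and those higher in pericytes included Pik3r1, a regulatory subunit of PI3 kinase, at 2.07 and Gab1 at 1.78. Feedback and response genes counted 8 of 11 higher and 1 lower, with a median of 4.04. Dusp4, with at most 5 counts in an SMC library, had the largest fitted value, followed by Dusp6 (7.25), Spry4 (5.78), Spry2 (4.94) and Fos (4.83). Of the relatives 1 was higher and 0 lower (median 0.70), Pgf with 5.38 CPM in pericytes.

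Among small intestinal FB, the PDGFRα hi cells differed from the rest in Pdgfra alone, the gene of their gate. It was 1 of the 6 genes, beside 3.38% of all genes. Pdgfa (0.19) and Pdgfrb (0.14) were close to 0, and Pdgfc (−1.88, edgeR adjusted p = 0.676) and Pdgfd (−0.71, edgeR adjusted p = 0.929) did not pass. The ligand processing and partner genes counted 3 higher and 2 lower (median −0.04 beside 0.01 over all genes). Pcsk6 (3.45), Plau (2.72), the gene of urokinase, which activates the D chain, and Cspg4 (1.78) rose, and Pcsk5 (−2.13) and Nrp1 (−2.12) fell. Of the signalling genes 0 were higher and 1 lower (median 0.11), Fyn at −1.93. Spry4 rose by 3.91 as the 1 of 11 feedback genes called (median 1.14), and Kit, the stem cell factor receptor gene, by 5.25 as the 1 of 11 relatives (median −0.05). Kit was at 6.97, 8.19 and 42.9 CPM, and its call was lost in 6 of 9 fits without a library, with 3.91 and an edgeR adjusted p of 0.281 without replicate 3. It is also 1 of the 3 markers of interstitial cells of Cajal, of which Etv1 was highest in these libraries too, at 460, 399.8 and 455 CPM, while the third, Ano1, was at 0, 2.223 and 0.1134 CPM, against 527 to 1045 CPM in small intestinal pericytes. The part of such cells was not tested.

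The same comparison in the colon also gave Pdgfra alone, 1 of the 6 genes beside 3.51% of all genes. That background was 615 genes, and 406 without PDGFRα hi FB replicate 2. Ligand processing and partner genes counted 2 higher and 1 lower (median −0.30 beside −0.06 over all genes), with Plau at 4.73, Cspg4 at 1.63 and Nrp1 at −1.65. No signalling gene was called by edgeR (3 under an unadjusted p of 0.05, 0 by DESeq2, median −0.19). Feedback genes counted 1 higher and 2 lower (median 0.16), with Spry4 at 2.84, Egr1 at −2.08 and Fos at −1.83. Vegfa rose by 1.63 as the only relative called (median 0.08). Plau, Cspg4 and Spry4 were thus called higher, and Nrp1 lower, in PDGFRα hi FB of either organ. Only Spry4 kept its call in every fit without a library. Cspg4 lost it in 2 of 9 small intestinal and 3 of 12 colonic fits, and overlapped Fgfr2+ FB in both organs. Nrp1 lost it in 4 of 12 colonic fits and Plau in 1 of 9 small intestinal fits.

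Small intestinal CD34+ and Fgfr2+ FB share the PDGFRα int gate. None of the 6 genes was called by edgeR, beside 1.21% of all genes, with 2 under an unadjusted p of 0.05 (Pdgfa and Pdgfc) and 1 called by DESeq2 (Pdgfc). The background of 213 genes was 126 without CD34+ FB replicate 1, 135 without CD34+ FB replicate 2 and 132 without Fgfr2+ FB replicate 1. Pdgfra differed without overlap but by little (0.40, SE 0.255, edgeR adjusted p = 0.612). Sparc, a matrix protein that binds the B chain, rose by 1.97 as the 1 of 17 ligand processing and partner genes called (median 0.15 beside 0.02 over all genes). Fos (3.45), Myc (2.99) and Egr1 (2.56) were the 3 of 11 feedback and response genes called, all higher in CD34+ FB, although the list median was −0.19. No signalling gene was called by edgeR (5 under an unadjusted p of 0.05, 1 by DESeq2, median −0.19), and no relative (2 under an unadjusted p of 0.05, 2 by DESeq2, median −0.66).

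Colonic CD81+ FB against CD90+ and Fgfr2+ FB gave 1 of the 6 genes, Pdgfa, beside 1.57% of all genes, and 0 of the 6 without CD81+ FB replicate 1. Vegfd, a growth factor of lymphatic vessels, rose by 3.03 and was the only relative called (median 0.53 beside 0.04 over all genes). The other lists had 0 genes called by edgeR and 1 each by DESeq2. Under an unadjusted p of 0.05 there were 9 ligand processing and partner genes (median 0.72), 4 signalling genes (median 0.06) and 6 feedback and response genes (median 0.73).

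Pericytes of the small intestine and colon had 0 of the 6 genes called by edgeR, beside 5.72% of all genes, with 2 under an unadjusted p of 0.05 (Pdgfrb and Pdgfc) and 0 called by DESeq2. The background of 1003 genes was 616 without small intestinal pericyte replicate 1 and 1711 without replicate 3. With only these 6 libraries in the fit, edgeR called 0 genes, with 1090 of 13361 under an unadjusted p of 0.05. Of the ligand processing and partner genes 2 were higher and 0 lower in the small intestine (median 0.15 beside 0.00 over all genes), Pcsk6 at 3.54 and Pcsk5 at 1.99. Signalling genes had a median of 0.22, with Nck1 lower at −3.20, and Spry2 at 2.75 was the 1 feedback gene called (median 0.30). Relatives counted 2 higher and 0 lower (median −0.53), Vegfb at 3.81, a call lost in 4 of 6 fits without a library, and Vegfc at 35.3 ± 46.8 (5.12 to 89.3) against 0.415 CPM, a call that held in all 6.

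PDGFRα hi FB of the organs had 0 of the 6 genes called by edgeR, beside 0.963% of all genes, with 3 under an unadjusted p of 0.05 (Pdgfra, Pdgfc and Pdgfd) and 0 called by DESeq2. The background of 169 genes was 108 without colonic PDGFRα hi FB replicate 3 and 110 without small intestinal replicate 1. Pdgfa (1.00, edgeR adjusted p = 1.00) and Pdgfc (−3.15, SE 1.28, edgeR adjusted p = 0.525) did not pass, though neither overlapped between the organs. No gene of the lists was called by edgeR. Ligand processing and partner genes had a median of −0.14 beside 0.02 over all genes, with 3 under an unadjusted p of 0.05 and 2 called by DESeq2. DESeq2 called 0 genes of the other lists, where 2 signalling genes (median 0.25), 3 feedback and response genes (median 0.40) and 2 relatives (median −0.35) had an unadjusted edgeR p under 0.05.

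Fgfr2+ FB of the organs likewise had 0 of the 6 genes called by edgeR, beside 1.45% of all genes, with 2 under an unadjusted p of 0.05 (Pdgfc and Pdgfd) and 1 called by DESeq2 (Pdgfc). The background of 255 genes was 162 without small intestinal Fgfr2+ FB replicate 1. Feedback and response genes counted 0 higher and 3 lower in the small intestine (median −0.44 beside −0.01 over all genes), Fos at −4.26, Myc at −4.21 and Egr1 at −3.12. The small intestinal Fgfr2+ FB libraries are those also used against CD34+ FB, where the same 3 genes were lower. The other lists had 0 genes called by edgeR, with an unadjusted p under 0.05 for 1 ligand processing and partner gene (median −0.16), 5 signalling genes (median −0.24) and 1 relative (median 0.64), of which DESeq2 called 0, 1 and 0 per list.

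Whether the organ difference itself differed between PDGFRα hi and Fgfr2+ FB was tested as an interaction, from the same 12 libraries. Of the 6 genes 1 was called, Pdgfra (log2 difference 1.63, SE 0.363, edgeR adjusted p = 0.0269), beside 0.661% of all genes. The call was lost on leaving out any 1 of 10 of the 12 libraries, with adjusted p between 0.0537 and 0.0918, and held without replicate 1 of Fgfr2+ FB of either organ. It was lost as well without the filter on low counts (1.55, adjusted p = 0.0586) and with length-scaled TPM (1.68, adjusted p = 0.0555), and kept by DESeq2. The background of 116 genes fell as low as 63 without colonic Fgfr2+ FB replicate 3 or colonic PDGFRα hi FB replicate 3, and was 65 and 70 without colonic PDGFRα hi FB replicates 1 and 2 and 73 and 75 without small intestinal PDGFRα hi FB replicates 1 and 2. Pdgfa had a value of 1.69 (SE 0.890, edgeR adjusted p = 0.700). Pik3r1 (1.53) was the 1 signalling gene called (median 0.19 beside 0.08 over all genes), and Myc (4.17) and Egr1 (2.23) the 2 feedback and response genes (median 1.05). DESeq2 called 0 signalling genes there. These calls were as unstable as that of Pdgfra. Of 12 fits without a library, Pik3r1 and Egr1 each lost theirs in 10 and Myc in 9. Neither edgeR nor DESeq2 called a gene of ligand processing and partners (2 under an unadjusted p of 0.05, median 0.12) or a relative (1 under an unadjusted p of 0.05, median 0.64).

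The ligand processing genes had their own distribution over the populations. Pcsk6 averaged 563 CPM in PDGFRα hi FB of the small intestine, 333 CPM in those of the colon and 0.861 CPM in colonic pericytes, and Pcsk5 ran from 18.7 CPM in colonic pericytes to 730 CPM in colonic CD81+ FB. Furin, the general convertase of the A and B chains, varied less, from 39.7 CPM in colonic Fgfr2+ FB to 94.1 CPM in colonic pericytes. Plat ran from 7.36 CPM in SMC, where Pdgfc was highest, to 167 CPM in colonic CD81+ FB. Plau averaged 137 CPM in colonic PDGFRα hi FB, where Pdgfd held its largest share, and the next populations were colonic pericytes at 22.1 CPM and PDGFRα hi FB of the small intestine at 20.9 CPM. Nrp1 ran from 64.6 CPM in small intestinal PDGFRα hi FB to 439 CPM in small intestinal pericytes, Lrp1 from 563 CPM in colonic pericytes to 3473 CPM in small intestinal CD34+ FB, Cspg4 from 17.6 CPM in colonic CD81+ FB to 1019 CPM in colonic pericytes, and Sparc from 4181 CPM in SMC to 19490 CPM in small intestinal CD34+ FB.

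The populations also differed in which annotated transcripts the estimated counts fell on. Pdgfra-201 held between 58.6% and 78.4% of the Pdgfra count in FB populations and at most 1.06% in pericytes and SMC. There Pdgfra-202, which begins at base 75155899 of chromosome 5 against 75152306 for Pdgfra-201, held 94.1% in small intestinal pericytes, 98.4% in colonic pericytes and 96.3% in SMC, against 15.2% to 36.7% in FB. In SMC, 73.2% of the Pdgfc count fell on Pdgfc-202, a transcript annotated for nonsense-mediated decay, 19.5% on Pdgfc-201 and 7.28% on Pdgfc-203. Pdgfa in SMC was spread over Pdgfa-204 (48.3%), Pdgfa-202 (34.2%) and Pdgfa-201 (16.7%). Short single reads place counts on transcripts of 1 gene with an error that was not measured. Overlapping genes without strand are a further limit for Pdgfra (Gm42802 and Gm42803) and Pdgfc (Gm16000).

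In GENCODE M21 on GRCm38, Pdgfra lies on the plus strand of chromosome 5 from 75152292 to 75198215 and Pdgfa on the minus strand of the same chromosome from 138976014 to 138997370. Pdgfb lies on the minus strand of chromosome 15 from 79995874 to 80014977, Pdgfc on the plus strand of chromosome 3 from 81036416 to 81214040, and Pdgfd on the plus strand of chromosome 9 from 6168584 to 6378850. All are protein-coding genes, as is Pdgfrb.

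RefSeq promoters of GRCm38.p6, 250 bases before to 50 after a gene's start, were searched for 4 of the 6 genes, with 5 promoters between them. Pdgfb had no entry, and Pdgfrb was left out of this search. The CArG box, the element bound by serum response factor and known from smooth muscle genes, was searched on both strands and found in 535 of 32851 promoters of this length (1.63%). The Pdgfc promoter held 1, with its first base 17 bases before the start, and the other 4 promoters held none. The promoter is shown because Pdgfc was highest in SMC, and capitals mark the CArG box in chr3:81036166-81036465, plus strand, GRCm38.
Pdgfc promoter: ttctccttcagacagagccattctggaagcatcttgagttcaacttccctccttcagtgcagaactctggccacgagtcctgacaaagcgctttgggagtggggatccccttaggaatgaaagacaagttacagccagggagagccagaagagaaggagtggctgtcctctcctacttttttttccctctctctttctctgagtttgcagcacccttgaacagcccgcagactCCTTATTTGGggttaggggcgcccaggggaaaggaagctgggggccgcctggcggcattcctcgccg
The start used is the first base of Pdgfc-201, while most of the SMC count fell on Pdgfc-202, which begins at 81037172. A match of letters is a description only. The GC box GGGCGG (35.7% of all promoters) occurred in both Pdgfa promoters, the TATAAA box (13.6%) in that of Pdgfd, and the CCAAT box (37.4%) in none, and the Pdgfra promoter held none of these motifs.

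For each gene the 5 genes with the most similar means of log2 CPM over the 10 populations were taken from those with a mean of at least 10 CPM in 1 population, 12603 besides the gene itself (12604 for Pdgfb, whose own means were all under 10 CPM). For Pdgfra they were Disp1 (Pearson r = 0.966), Clptm1l (0.957), Ncstn (0.956), Srpx2 (0.954) and Dhcr7 (0.95). For Pdgfrb they were Notch1 (0.982), Slc7a2 (0.980), Pmfbp1 (0.978), Ptp4a3 (0.978) and Nt5dc2 (0.977). Pdgfa was most like Hnrnpl (0.959), Gm20449 (0.954), Ttc7b (0.948), Errfi1 (0.947) and Ccnd2 (0.946), and Pdgfb most like Sncg (0.978), Gm18991 (0.975), Susd5 (0.966), Pitpnm3 (0.963) and Scn4b (0.961). Pdgfc was most like Ank1 (0.938), Egln3 (0.920), Acot2 (0.916), Lrrc29 (0.916) and Klf5 (0.912), and Pdgfd most like Gm20696 (0.917), Gpnmb (0.908), Clpb (0.899), Usp45 (0.897) and Cast (0.894). Each r rests on 10 points.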

How the data were processed

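The authors amplified total RNA of sorted cells, sequenced single reads, trimmed them with Trim Galore 0.4.0, checked them with FastQC 0.11.2 and quantified transcripts with kallisto 0.42.5 (builds mm10 and GRCm38). The deposited values are an estimated count and a TPM for each of 98492 transcripts, and the transcript set is not named. The estimated count is unnormalized and apportions ambiguous reads between transcripts, and the authors' TPM is length-corrected and scaled to a fixed total. Of the transcripts, 97116 matched GENCODE M21, and between 97.8% and 99.2% of each library's estimated count lay on the 32316 genes they form.

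Estimated counts were summed by gene symbol and rounded. edgeR 4.0.16 (limma 3.58.1, R 4.3.3) was run with TMM normalization and its quasi-likelihood test on all 30 libraries in 1 model with a coefficient per population, with 20 residual degrees of freedom, for 17540 genes with at least 6 counts in 3 libraries. Calls required an adjusted p (Benjamini-Hochberg) under 0.05 together with an absolute log2 fold change over 1.5. A contrast against several populations averages their fitted log2 levels with equal weight, so its sign can differ from that of the mean CPM. The SE is the fold change divided by the root of its F statistic. CPM per kb divides each transcript's estimated count by its effective length before summing. Log2 CPM for correlations use a prior count of 2. Where a group was at 0, folds were computed against 3 counts per library. The procedure was tested on simulated data. Several comparisons share libraries. The study describes independent sorts and subsets of both organs taken from shared mice, without saying which libraries share an animal, so p-values measure the spread between these libraries.

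Alternatives were DESeq2 1.42.0, its size factors in edgeR (RLE), length-scaled TPM, no filter, a stricter filter (10 counts in every library of a population), only the libraries compared, the replicate number as a block, each library left out, and, for ratios, counts not divided by length. Fits without the 4 libraries that stood apart were chosen after seeing the data.

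The members and lists were chosen with earlier results of these data known. Besides the 6 genes in every population, the genes named are, for each comparison, called genes of the lists of ligand processing and receptor partners (17), receptor signalling (33), feedback and response (11) and PDGF and VEGF relatives (11), at most the 5 of largest change per list; Plat, Plau, Furin, Pcsk5, Pcsk6, Nrp1, Lrp1, Cspg4 and Sparc whatever their values; the markers of fibroblasts, pericytes, smooth muscle, endothelium, platelets and megakaryocytes, immune cells, epithelium, interstitial cells of Cajal, mesothelium and colon position; and the 5 genes most similar to each member. List medians use fitted values. With genes at 0 on one side set to their bound, or left out where both sides were low, a median moved by at most 0.21, in the ligand processing and partner list of colonic pericytes against FB, to 0.24.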

Additional observations from a re-analysis of the deposited data

Results flagged for a closer look

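The organ difference of Pdgfra differed between FB subsets, with a log2 difference of 1.63 (SE 0.363, edgeR adjusted p = 0.0269), by a test of the interaction itself. Small intestinal PDGFRα hi FB held 6093, 6587 and 6408 CPM against 2388, 2467 and 2548 CPM in colonic PDGFRα hi FB, while Fgfr2+ FB held 662, 664 and 592 CPM against 652, 729 and 801 CPM. The small intestinal FB were gated on PDGFRα and the labels of the colonic FB name no such gate. Gate and organ therefore cannot be told apart. The call was lost in 10 of 12 fits that left out 1 library, with adjusted p from 0.0537 to 0.0918, and in those 10 the log2 difference lay between 1.53 and 1.66. It was lost as well without the filter on low counts (1.55, edgeR adjusted p = 0.0586) and with length-scaled TPM (1.68, edgeR adjusted p = 0.0555).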

How the results depend on the processing

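With 1 library left out, 631 of the members' log2 fold changes kept their direction and side of the threshold, 13 lost a call, 2 gained one and 20 changed sign, each of the last in a difference that was not called. The lowest and highest of these values were −0.18 and 1.63 for Pdgfd in small intestinal pericytes against FB, −0.22 and 0.94 for Pdgfd in SMC against FB, and −0.84 and 1.35 for Pdgfd in small intestinal pericytes against SMC. Small intestinal PDGFRα hi FB against other FB ran from −0.089 to 0.34 for Pdgfrb, and colonic PDGFRα hi FB from −0.93 to 0.48 for Pdgfc and −0.11 to 0.27 for Pdgfd. Colonic CD81+ FB ran from −0.17 to 0.24 for Pdgfrb and −2.65 to 1.02 for Pdgfc, with 0 to 1 members called. Pericytes of the organs ran from −0.14 to 0.13 for Pdgfra and −0.50 to 0.58 for Pdgfa. The interaction ran from −0.35 to 0.15 for Pdgfrb and −0.52 to 0.34 for Pdgfd, with 0 to 1 members called. Genes called ran from 530 (without SMC replicate 3) to 921 for SMC against FB, 406 (without PDGFRα hi FB replicate 2) to 601 for colonic PDGFRα hi FB, 126 (without CD34+ FB replicate 1) to 180 for CD34+ against Fgfr2+ FB, 616 (without small intestinal replicate 1) to 1711 (without replicate 3) for pericytes of the organs, 108 (without colonic replicate 3) to 122 for PDGFRα hi FB of the organs, 162 (without small intestinal replicate 1) to 221 for Fgfr2+ FB of the organs, and 63 (without replicate 3 of either colonic population) to 97 for the interaction. DESeq2 kept 66 of 72 members' values and called more genes, with 2941 for small intestinal pericytes against SMC, 891 for small intestinal PDGFRα hi FB, 598 for CD34+ against Fgfr2+ FB, 616 for colonic CD81+ FB, 2407 for pericytes, 403 for PDGFRα hi FB and 814 for Fgfr2+ FB of the organs, and 367 for the interaction. It called 1 member, Pdgfc, for CD34+ against Fgfr2+ FB and 1, Pdgfc, for Fgfr2+ FB of the organs. Pdgfra between the pericytes, at −0.02, was 0.038 by DESeq2 and with RLE and 0.70 with length-scaled TPM. With only the libraries compared, 390 genes were called for small intestinal pericytes against SMC, 395 for CD34+ against Fgfr2+ FB, 406 for PDGFRα hi FB of the organs, 201 for the interaction and, by edgeR, 0 for pericytes of the organs (1090 under an unadjusted p of 0.05, 2407 by DESeq2 in the fit of all libraries). Without a filter, 421 genes were called for colonic CD81+ FB, 1 member, Pdgfc, for Fgfr2+ FB of the organs and 0 members for the interaction, and with length-scaled TPM 0 members for the interaction. Without the 4 libraries that stood apart, chosen after seeing the data, 1 member (Pdgfc) was called for CD34+ against Fgfr2+ FB, 0 for colonic CD81+ FB, 1 (Pdgfc) for Fgfr2+ FB of the organs and 0 for the interaction. The stricter filter dropped Pdgfb, which then had no value, and kept the other 60 values. Without division by length, the log2 receptor ratio was 4.78 in small intestinal and 3.80 in colonic PDGFRα hi FB, 2.18 in CD34+ FB, 2.02 in colonic Fgfr2+ FB and −8.33 in small intestinal pericytes, and the Pdgfa share 93.0% in colonic pericytes, 61.2% in small intestinal Fgfr2+ FB and 74.97% in the PDGFRα hi FB there. SMC then had 37.6% Pdgfa and 58.9% Pdgfc, in the opposite order to the main values. Although mice were shared between subsets and organs, neither the labels nor the study's methods tie a replicate number to an animal or a sort, so the numbers were not used as pairs. The mean correlation of deviations was 0.00748 over 135 pairs of the same number, 1 of them over 0.1, and −0.00338 over 270 other pairs, and 23 of 30 libraries correlated best with their own number, a hint from the data and not from the design. With the number as a block, 3 members in place of 4 were called for small intestinal pericytes against FB (Pdgfb adjusted p = 0.116) and Pdgfrb in colonic CD81+ FB was −0.019 in place of 0.03, and no other call of a member changed. The cause of these differences between fits was not tested. Low counts limit what these data show of Pdgfb, at 0 in all libraries of 6 populations, and of Pdgfc in colonic pericytes and in small intestinal Fgfr2+ and PDGFRα hi FB, with at most 9 counts per library.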
